A study of Arabidopsis thaliana with 23 samples.

Results

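AT1G09485 is a noncoding gene of Arabidopsis thaliana that lies inside a cluster of 24-nt small interfering RNAs (siRNAs) on chromosome 1. The cluster runs from 16364001 to 16366700 of TAIR10 and was described together with its surroundings from 16363001 to 16367700, in nonoverlapping windows of 100 bp. The region holds 47 windows, 27 of them in the cluster and 10 on each side of it, of the 553580 windows of the genome that had a 24-nt read in any library. The locus was picked from measured values: it held the lowest-FDR window of one of the loci that lost 24-nt siRNAs in zmp-2 against WT in batch A, it was called again in batch B, and the libraries of the groups did not overlap. The batches are named by the letters A and B in the library titles. All values of zmp-2 against WT below are therefore a description, with no test, whatever the size class. The other contrasts were not used by the rule, but they share their zmp-2 or WT libraries with it.

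Small RNAs of inflorescences (Col-0 ecotype, long days) were sequenced in 23 libraries of 8 groups. Batch A held zmp-2 ZMP-YFP (3 libraries), nrpd1-3 (2), zmp-2 (3) and WT (3). Batch B held zmp-2 nrpd1-3 (3), zmp-2 shh1-1 (3), zmp-2 (3) and WT (3), and no group was compared across the batches. The allele zmp-2 is a T-DNA insertion in ZMP (AT5G63700), nrpd1-3 affects NRPD1 and shh1-1 affects SHH1. In zmp-2 ZMP-YFP the zmp-2 background carried a YFP-tagged ZMP under its own promoter. The 2 double mutants carry zmp-2 as well, so zmp-2 of batch B was their partner, and a shh1-1 single mutant was not analysed here.

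In RNA-directed DNA methylation, RNA polymerase IV (Pol IV) makes short precursors that RDR2 copies into double strands and DCL3 cuts into 24-nt siRNAs, which guide DNA methylation to matching sequence. NRPD1 is the largest subunit of Pol IV. SHH1 reads histone marks and helps to bring Pol IV to part of its sites, and ZMP is a Pol IV-interacting protein with zinc finger, MDM2/SWIB and Plus-3 domains. Transposons and other methylated repeats are the usual source of such siRNAs in Arabidopsis flowers.

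AT1G09485 spans 16365144 to 16366388 on the minus strand (1245 bp, annotated as misc_RNA), so that its 5′ end lies on the right side of the map. Of the 27 cluster windows 13 overlapped the gene (10 with an exon, 3 in introns only), 11 lay to its left beyond the 3′ end and 3 to its right beyond the 5′ end. These 14 windows were intergenic. The nearest genes outside were the coding gene AT1G43330, 3977 bp to the left, and the pseudogene AT1G43387, 3793 bp to the right. At least 90% of the 24-mers occurred once in the genome in 25 of the 27 cluster windows and in all 13 gene windows. The exceptions were the windows starting at 16364601 (88.6%) and at 16366601 (89.4%). In the left flank all 10 windows reached 90%, but in the right flank only 5 of 10 did, with a lowest share of 77.2%. Right-flank values below carry this limit. The cluster had 75 CG sites and 31.7% GC, against 36.0% in the nuclear chromosomes. Weaker similarity to other places was common: 79 stretches elsewhere, none of at least 80% identity over 200 bp, covered 72.7% of the cluster.

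The sequences of 4 windows are given (TAIR10.1, RefSeq, plus strand, 5′ to 3′, CG sites in capitals), because the cluster's 24-nt reads were concentrated in a few windows that differ in base composition from their neighbours. The windows at 16364601, 16365801 and 16366201 had the highest 24-nt levels of the cluster in WT of batch A, and the one at 16364901 was among the lowest, with 10 reads over the WT libraries.
chr1:16364601-16364700: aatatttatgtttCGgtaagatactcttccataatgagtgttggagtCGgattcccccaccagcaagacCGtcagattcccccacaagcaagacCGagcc
chr1:16364901-16365000: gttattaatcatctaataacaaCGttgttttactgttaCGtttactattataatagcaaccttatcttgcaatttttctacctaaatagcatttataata
chr1:16365801-16365900: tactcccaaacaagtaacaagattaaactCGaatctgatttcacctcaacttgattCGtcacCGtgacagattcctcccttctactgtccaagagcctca
chr1:16366201-16366300: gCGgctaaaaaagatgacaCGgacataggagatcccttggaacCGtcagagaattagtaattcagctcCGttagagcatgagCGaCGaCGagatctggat
The intergenic window starting at 16364601 had 4 CG sites and 48% GC, and it holds a tandem pair of 22-base copies (16364650 to 16364671 and 16364675 to 16364696) with 1 mismatch between them. The quiet intergenic window starting at 16364901 had 2 CG sites and 24% GC. In the gene, the exon window starting at 16365801 had 3 CG sites and 43% GC, and the exon window starting at 16366201 had 7 CG sites and 48% GC. CG was searched as the letters CG, which read the same on both strands. Of all nuclear windows 82.4% hold at least 1 CG site, 22.4% at least 4, 58.4% at least 2, 37.2% at least 3 and 4.59% at least 7, so that of these windows the one starting at 16366201 was the least ordinary. Across the 27 cluster windows the GC content and the 24-nt level in WT went together (Pearson r 0.88 and Spearman rho 0.86 in batch A, 0.86 and 0.84 in batch B). This is a description over neighbouring windows of the same libraries, with base composition shared by the reads themselves.

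Levels are given as RPMR, reads per 1000000 (M) 45S ribosomal RNA (rRNA) reads, as the authors scaled them. In this unit a group's level does not depend on how many other small RNAs the library holds, but it does move with the yield of rRNA fragments. The libraries held 0.532 to 8.35 M reads of 21 to 24 nt, 0.0696 to 5.07 M reads of 24 nt and 0.247 to 7.72 M rRNA reads. The rRNA reads were 6.04 to 7.72 M in zmp-2 nrpd1-3 and 0.978 to 1.53 M in zmp-2 shh1-1, against 0.384 to 0.470 M in zmp-2 of batch B. The levels of the whole cluster are also given per M reads of 21 to 24 nt, and shares of single windows are on the rRNA scale unless stated. At the gene that was disrupted, ZMP, the 24-nt reads ranged between 5 and 793 over the zmp-2 ZMP-YFP libraries, against 2 to 6 in zmp-2 and 0 to 1 in WT of batch A. NRPD1 and SHH1 had at most 5 and 3 reads in any library, so that small RNA reads do not show the knockouts themselves.

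The cluster as a whole gave abundant 24-nt siRNAs in zmp-2 ZMP-YFP and in WT, few in zmp-2 and almost none without NRPD1. The summed 24-nt level of the 27 windows was 11188, 14864 and 13007 RPMR in the 3 zmp-2 ZMP-YFP libraries, and 35.5 and 30.1 RPMR in the 2 nrpd1-3 libraries. The zmp-2 libraries of batch A had 2541, 2409 and 2682 RPMR, and the WT libraries 19991, 18097 and 17160 RPMR. The 4 groups did not overlap at any point.
In batch B the sums were 0.798, 1.32 and 0.648 RPMR in zmp-2 nrpd1-3, and 1001, 782 and 424 RPMR in zmp-2 shh1-1. The zmp-2 libraries of batch B had 946, 818 and 653 RPMR, and the WT libraries 5491, 7400 and 6032 RPMR. Only zmp-2 shh1-1 and zmp-2 overlapped, and the lowest zmp-2 shh1-1 library was replicate 3.
As group means, the cluster kept 13.8% of the WT level in zmp-2 of batch A (2544 ± 136 RPMR against 18416 ± 1442 in WT, SD, n = 3 each) and 12.8% in batch B (806 ± 147 RPMR against 6307 ± 984, SD, n = 3 each). In the 25 uniquely mappable windows alone, zmp-2 ZMP-YFP had 69.2% of the WT level, and zmp-2 had 12.7% in batch A and 12.3% in batch B. Over all 27 windows zmp-2 had 17% of the WT level in batch A and 16.2% in batch B per M reads of 21 to 24 nt.

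**Figure D1:**
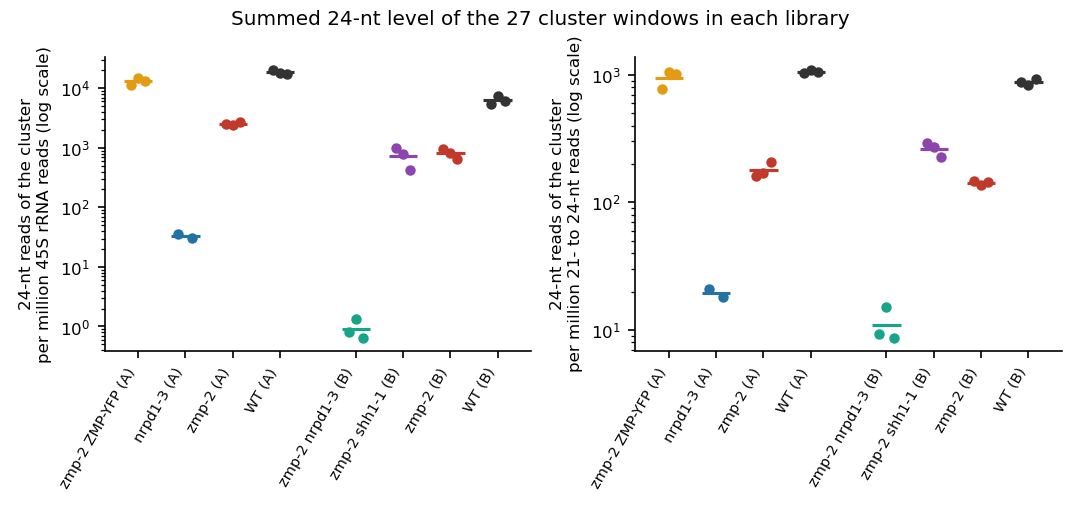
Each point is the summed 24-nt level of the 27 cluster windows in 1 library and each bar is the group mean, on a log axis. On the left it is given per M 45S rRNA reads, on the right per M reads of 21 to 24 nt. The zmp-2 shh1-1 libraries overlap zmp-2 on the left (424 to 1001 against 653 to 946 RPMR) and lie above it on the right (228 to 293 against 136 to 146).

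Along the region the 24-nt reads formed separate peaks. In WT of batch A the highest window mean was 3569 RPMR, in the window starting at 16364601, left of the gene. Inside the gene, the windows starting at 16365801 and 16366201 had 2578 and 2216 RPMR. Between the peaks lay windows such as the one at 16364901, with 12.9 RPMR. The 7 windows highest in WT of batch A held 84.7% of the cluster's level in zmp-2 ZMP-YFP, 77.2% in zmp-2 and 83.8% in WT of batch A. In batch B the same windows held 74.9% in zmp-2 shh1-1, 73.8% in zmp-2 and 83.7% in WT. The windows starting at 16363601, 16363701 and 16363801, left of the cluster, had at most 1.87 RPMR in any group and are the gap that sets the cluster apart on that side. Beyond the gap lay another peak, highest at the window starting at 16363301 with 251 RPMR in zmp-2 ZMP-YFP, 120 in zmp-2 and 445 in WT of batch A, more than in the first cluster window. On the right the level dropped at the cluster's edge but did not vanish, and another small peak followed within the flank.

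**Figure D2:**
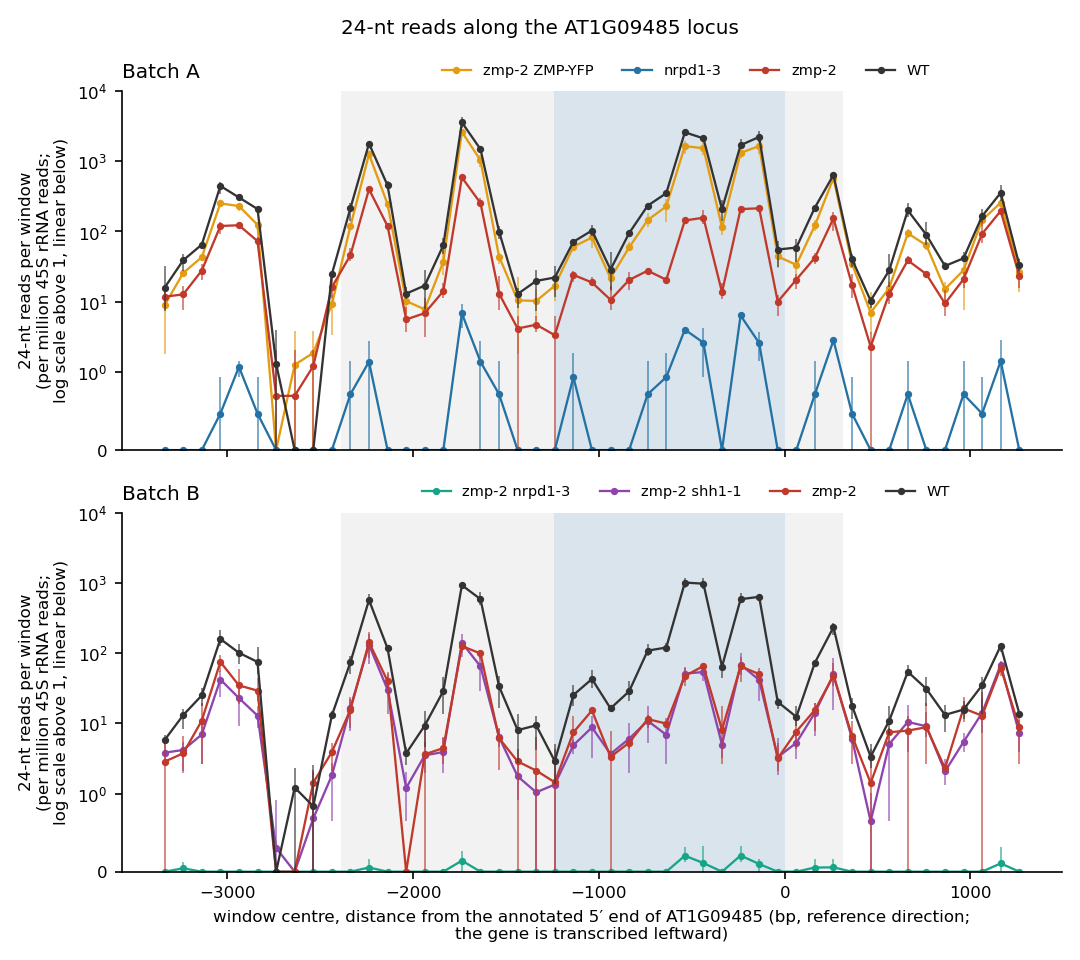
Points are group means of the 24-nt level per 100-bp window, vertical bars run between the lowest and the highest library, and the horizontal axis is the distance of the window's centre from the annotated 5′ end of AT1G09485. Grey shading marks the cluster and blue shading the gene. The vertical axis is linear up to 1 RPMR and logarithmic above, and the zmp-2 line runs below the zmp-2 ZMP-YFP and WT lines at each of the 27 cluster windows in batch A.

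The loss in zmp-2 differed between the parts of the cluster. The 13 windows of AT1G09485 together kept 8.92% of the WT level in zmp-2 of batch A and 8.08% in batch B. The 11 windows to their left kept 18.8% and 18.7%, and the 3 windows to their right 23.7% and 22.2%. Outside the cluster, the left flank kept 35.0% in batch A and 41.1% in batch B, and the right flank 44.0% and 41.9%. The lowest share was thus over the gene in both batches. It was so as well per M reads of 21 to 24 nt, with 11.0% and 10.2% over the gene, 23.2% and 23.7% to its left, and 28.7% and 27.8% to its right. The split of the cluster by the annotation was chosen after the values had been seen and carries no test.
By window, the zmp-2 level in batch A lay between 5.56% of WT, at the exon window starting at 16365801, and 42.9%, at the sparse window starting at 16364301, with a median of 19.3%. In batch B the range was 0 to 61.8% and the median 18.6%. The 0 belongs to the window starting at 16364301, which had no read in zmp-2 of batch B and only 4.56 RPMR in its highest WT library. Windows below 10% of WT numbered 5 in batch A and 5 in batch B, and 4 of them were the same. These 4, starting at 16365701, 16365801, 16365901 and 16366201, all lie in the gene. Over the 25 windows that could be fitted in both batches, the log2 ratios of zmp-2 to WT in batch A and batch B had a Pearson r of 0.87 and a Spearman rho of 0.86, a description over neighbouring windows.
In the same fits 22 of 27 cluster windows were called lower in zmp-2 than in WT of batch A, where 6.05% of all tested windows were, and 18 of 25 in batch B, where 6.12% were. Nothing is read from these counts, since this contrast chose the locus. The median log2 fold change over the cluster was -2.40 in batch A, where all tested windows had a median of 0.08. It was -2.35 in batch B, where they had -0.10.

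The exon window starting at 16365801 was the one on which the locus had been picked. It had 1255, 1913 and 1754 RPMR in zmp-2 ZMP-YFP, and 3.74 and 4.30 RPMR in nrpd1-3. In batch A it had 133, 140 and 157 RPMR in zmp-2, against 2825, 2567 and 2344 RPMR in WT. In batch B the same window had 0.319, 0.166 and 0.130 RPMR in zmp-2 nrpd1-3, and 51.1, 62.9 and 39.2 RPMR in zmp-2 shh1-1. The zmp-2 libraries of batch B had 60.9, 46.8 and 33.8 RPMR, against 849, 1181 and 995 RPMR in WT. Every zmp-2 library was thus far below every WT library, and zmp-2 shh1-1 fell in the same range as zmp-2.
The intergenic window starting at 16364601, the highest of the cluster, lost less. It had 2616, 2728 and 2503 RPMR in zmp-2 ZMP-YFP, and 9.34 and 4.30 RPMR in nrpd1-3. There were 590, 573 and 601 RPMR in zmp-2 of batch A, against 4222, 3486 and 2999 RPMR in WT. In batch B it had 184, 150 and 88.1 RPMR in zmp-2 shh1-1, against 146, 102 and 130 RPMR in zmp-2. As a share of WT it kept 16.5% in zmp-2 of batch A and 13.6% in batch B, above the share of the exon window at 16365801 (5.56% and 4.68%).
Near the gene's 5′ end, the exon window starting at 16366201 had 1282, 2045 and 1609 RPMR in zmp-2 ZMP-YFP. It had 204, 204 and 234 RPMR in zmp-2 of batch A, against 2677, 2117 and 1854 RPMR in WT. It kept 9.65% of WT in zmp-2 of batch A and 7.94% in batch B.

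At the cluster's edges the levels dropped, and the lower levels of zmp-2 continued into the flanks. The first cluster window, starting at 16364001, had 109, 130 and 118 RPMR in zmp-2 ZMP-YFP, and 58.4, 37.7 and 42.0 RPMR in zmp-2 of batch A, against 255, 247 and 142 RPMR in WT. Just outside it, the window starting at 16363901 had 22.9, 11.3 and 14.0 RPMR in zmp-2, against 22.2, 24.3 and 27.6 RPMR in WT, and these overlapped. At the other end, the last cluster window, starting at 16366601, had 495, 611 and 624 RPMR in zmp-2 ZMP-YFP, and 188, 102 and 173 RPMR in zmp-2, against 588, 704 and 623 RPMR in WT. Just outside it, the window starting at 16366701 had 25.0, 11.3 and 15.6 RPMR in zmp-2, against 40.7, 48.6 and 31.6 RPMR in WT, without overlap. In the left flank the window starting at 16363301 kept 26.9% of WT in zmp-2. These members just inside and just outside the borders are given as a description.

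How far the tagged ZMP restored the locus was asked by comparing zmp-2 ZMP-YFP with zmp-2 in batch A. The 24-nt siRNAs of the cluster came back to 70.7% of the WT level on the rRNA scale, and to 89.4% per M reads of 21 to 24 nt. The group mean was 13020 ± 1838 RPMR in zmp-2 ZMP-YFP, against 2544 ± 136 RPMR in zmp-2 (SD, n = 3 each), a 5.12-fold difference in means. All 3 zmp-2 ZMP-YFP libraries were above all 3 zmp-2 libraries. On the log2 scale the difference was 2.35 (p = 0.1 in a two-sided exact permutation test, which cannot go lower with 3 against 3 libraries, and 0.15 after Benjamini-Hochberg adjustment over 6 comparisons). Per M reads of 21 to 24 nt it was 2.39, with 778, 1042 and 1014 reads in zmp-2 ZMP-YFP, against 161, 171 and 206 in zmp-2. Replicate 1 of zmp-2 ZMP-YFP was the lowest by either measure, and without it the RPMR difference was 2.45.
By window, 19 of 27 were higher in zmp-2 ZMP-YFP than in zmp-2 (edgeR quasi-likelihood test, at least 2-fold and FDR of at most 0.05 over all tested windows), against 4.01% of all tested windows. The called windows were 11 of 13 in AT1G09485, 6 of 11 to its left and 2 of 3 to its right, and 3 of the 17 tested flank windows joined them. Each of the 27 windows had at least 9 reads over the zmp-2 ZMP-YFP libraries and 4 over those of zmp-2. All 27 log2 fold changes were above 0, with a median of 1.65, while the median over all tested windows was -0.44.
The highest fold changes lay over the gene. The top value was that of the exon window starting at 16365801 (log2 fold change 3.51, SE 0.229, adjusted p = 2.828e-08, edgeR), and the window starting at 16366201 had 2.94 (SE 0.223, adjusted p = 5.289e-08). The locus and the first of these windows were picked for low values in the same zmp-2 libraries. The p-values and the 19 calls of this comparison are therefore not independent of that choice. The intergenic window starting at 16364601 had 2.15 (SE 0.183, adjusted p = 1.717e-07). The lowest value belonged to the sparse window starting at 16364401, with 6.78, 9.02 and 7.61 RPMR in zmp-2 ZMP-YFP, against 6.25, 11.3 and 3.11 RPMR in zmp-2. There the log2 fold change was 0.38 (SE 0.781, adjusted p = 0.812, edgeR) and the libraries overlapped. Both edge windows of the cluster passed, with 1.35 at the window starting at 16364001 (adjusted p = 0.00643) and 1.88 at the one starting at 16366601 (adjusted p = 2.512e-05, edgeR).
Summed by segment, zmp-2 ZMP-YFP had 7.92-fold the zmp-2 level over the gene windows, 3.70-fold to their left and 3.37-fold to their right, against 1.80-fold in the left flank and 1.57-fold in the right flank. The 5 ratios per M reads of 21 to 24 nt were 8.12, 3.80, 3.50, 1.86 and 1.62. These ratios and the loss in zmp-2 hold the same zmp-2 libraries, so that their order is no independent measurement. Among the windows given one by one, the calls of 5 were lost when 1 library or another was left out, namely those starting at 16364001, 16364201, 16364801, 16365201 and 16366301.

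Against WT, zmp-2 ZMP-YFP was somewhat lower on the rRNA scale, by an amount that varied between windows. The log2 fold change was below 0 in all 27 cluster windows, with a median of -0.52 beside -0.36 over all tested windows, while under the total count it was below 0 in 22 and above 0 in 5. No window was called (0 of 27, edgeR, and 0 with DESeq2), where 0.451% of all tested windows were called lower, while 13 of 27 had an unadjusted p below 0.05. The lowest adjusted p was 0.0932, at the window starting at 16364201, which had 210, 249 and 274 RPMR in zmp-2 ZMP-YFP, against 455, 385 and 517 RPMR in WT. By level, zmp-2 ZMP-YFP lay between 44.2% of WT, at the window starting at 16364801, and 90.3%, at the edge window starting at 16366601, with a median of 69.4%. The fold changes of these 2 windows were -1.16 (SE 0.325, adjusted p = 0.145) and -0.15 (SE 0.192, adjusted p = 0.814, edgeR). At the exon window starting at 16365801, 63.6% of the WT level had returned.
For the whole cluster the log2 difference was -0.51 with no overlap between the libraries (exact permutation test, p = 0.1, the smallest possible, 0.15 adjusted over 6 comparisons). Per M reads of 21 to 24 nt it was -0.17 and the libraries overlapped (778, 1042 and 1014 in zmp-2 ZMP-YFP, against 1037, 1082 and 1051 in WT, exact permutation test, p = 0.2), so that the gap to WT depended on the scale.

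**Figure D3:**
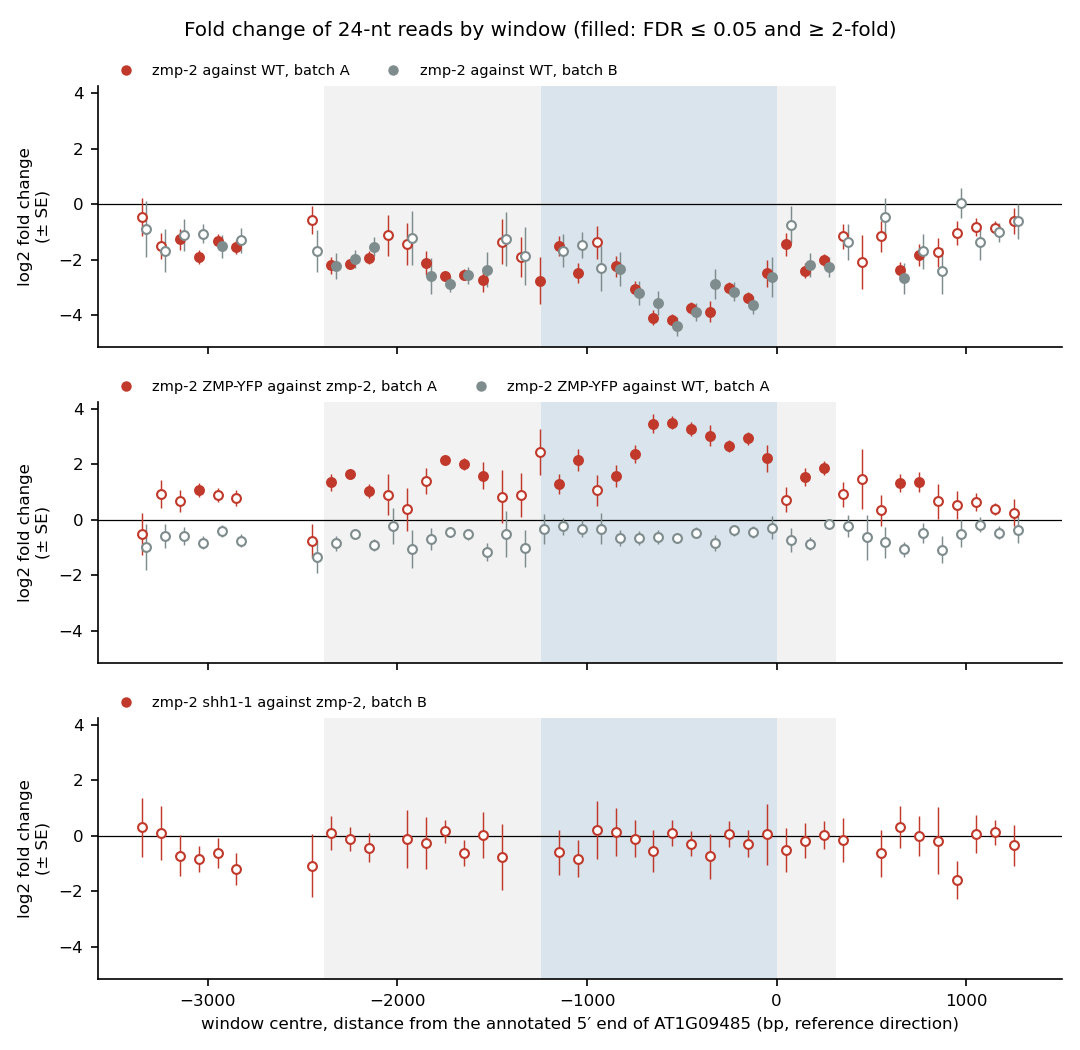
Points are the log2 fold change of 24-nt reads per window with its SE, from the edgeR fits, at the window's distance from the annotated 5′ end of AT1G09485, and filled points passed a fold of 2 and an FDR of 0.05. The top panel shows zmp-2 against WT in both batches, the middle panel zmp-2 ZMP-YFP against zmp-2 and against WT, and the bottom panel zmp-2 shh1-1 against zmp-2. In the middle panel the points over the gene reach 3.51 against zmp-2 and none is filled against WT.

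How the reads were spread over the cluster needs no scaling between libraries and moved in the same way. The gene windows held 48.7, 55.9 and 53.4% of the cluster's 24-nt reads in zmp-2 ZMP-YFP, and 32.9, 35.4 and 34.6% in zmp-2, against 54.2, 51.7 and 53.2% in WT of batch A. The libraries of zmp-2 were below all others, while zmp-2 ZMP-YFP and WT overlapped. In batch B these windows held 33.8, 35.9 and 41.8% in zmp-2 shh1-1, and 36.1, 36.4 and 36.7% in zmp-2, against 58.1, 57.4 and 57.1% in WT. Here zmp-2 shh1-1 overlapped zmp-2, and both lay below WT. These shares carry no test, since the split was chosen after the values had been seen.

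Whether the locus depends on Pol IV was asked with nrpd1-3. Of the cluster's 24-nt siRNAs 0.178% of the WT level remained, 32.8 ± 3.84 RPMR in nrpd1-3 (SD, n = 2) against 18416 ± 1442 RPMR in WT (SD, n = 3). This rests on 59 reads in nrpd1-3. The log2 difference was -9.14 and the libraries did not overlap (exact permutation test, p = 0.2, the smallest that 2 against 3 libraries allow, 0.24 adjusted over 6 comparisons). Per M reads of 21 to 24 nt it was -5.76, with 21.1 and 18 reads in nrpd1-3, against 1037, 1082 and 1051 in WT.
On the rRNA scale all 27 cluster windows were called lower (edgeR). So were 98.7% of all tested windows and 16 of 16 tested flank windows, so that the locus did not stand apart in this. The median log2 fold change was -8.03, against -6.66 over all windows. Of the 27 windows 13 had no read in nrpd1-3 and 8 had 1 to 3 reads. Such windows passed the count filter through WT alone, so that nothing is read from the count. With the 19 windows of fewer than 3 reads set to a floor of 3 reads over the group (1.70 RPMR), the median window was 123-fold lower in nrpd1-3, or 11.8-fold per M reads of 21 to 24 nt. The window starting at 16364201, with 0 reads, was at least 267-fold lower on the rRNA scale and at least 25.6-fold lower per M reads of 21 to 24 nt. The window starting at 16365801 kept 3.74 and 4.30 RPMR, from 7 reads in nrpd1-3 against 1992 in WT. Its log2 fold change was -9.26 (SE 0.421, adjusted p = 6.283e-13, edgeR). It too passed the filter through WT, whose libraries were used to pick it, so that nothing is read from this p. The 6 windows with more than 3 reads in nrpd1-3 were 225- to 935-fold lower on the rRNA scale, and 21.6- to 89.8-fold lower per M reads of 21 to 24 nt. In sparse windows far less could be seen: the one starting at 16364901, with 10 reads in WT and 0 in nrpd1-3, gave a bound of 7.65-fold on the rRNA scale.
Under some other scalings fewer windows were called. They numbered 8 of 27 with edgeR's TMM factors, beside 4.8% of all tested windows, and 6 of 27 with DESeq2, beside 1.12%. The median log2 fold change over all tested windows was -4.61 with TMM and 0.31 with DESeq2. Under the total count 23 of 27 were called, beside 66.4%, with a median of -5.00 over all tested windows. With miRNA windows as library size all 27 were called, beside 98.6%. The count filter was the same in these fits.

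The 24-nt reads that zmp-2 kept also went when NRPD1 was lost as well. The cluster had 0.923 ± 0.355 RPMR in zmp-2 nrpd1-3, against 806 ± 147 RPMR in zmp-2 of batch B (SD, n = 3 each), which is 0.115%, from 18 reads in all. The log2 difference was -9.82 without overlap (exact permutation test, p = 0.1, the smallest possible, 0.15 adjusted over 6 comparisons). Per M reads of 21 to 24 nt it was -3.73, with 9.38, 15.0 and 8.72 reads in zmp-2 nrpd1-3, against 146, 136 and 144 in zmp-2. The direction was the same on both scales and the size was not. The zmp-2 nrpd1-3 libraries had 6.04 to 7.72 M rRNA reads, against 0.384 to 0.470 M in zmp-2, and the part of this in the result was not tested.
Of the 27 windows 17 could be fitted and all 17 were called lower (edgeR), beside 98.8% of all tested windows, and 11 of 11 in the flanks. The median log2 fold change was -8.55, against -8.68 over all windows. In zmp-2 nrpd1-3 19 of 27 windows had no read, and 6 had 1 to 3 reads, and the fitted windows again passed the filter through zmp-2. The window starting at 16364701, with 0 reads, was at least 665-fold lower than in zmp-2 on the rRNA scale (floor of 3 reads over the group, 0.15 RPMR) and at least 9.48-fold lower per M reads of 21 to 24 nt. With the 24 windows of fewer than 3 reads set to the floor, the ratio of the median window was 66.0 on the rRNA scale and 0.941 per M reads of 21 to 24 nt, so that on the second scale a difference was not detectable in many single windows at this depth. The largest remainder in reads was 4.
Set against zmp-2 shh1-1 in place of zmp-2, the cluster in zmp-2 nrpd1-3 was lower by a log2 difference of -9.62, or -4.62 per M reads of 21 to 24 nt (exact permutation test, p = 0.1, the smallest possible, for both). All 23 windows that could be fitted were called lower, beside 98.5% of all tested windows. They passed the count filter almost only through zmp-2 shh1-1, so that nothing is read from this count. Under the total count 17 of 23 were called, beside 47.75% of all tested windows. With windows of fewer than 3 reads set to the floor, the ratio of the median window was 42.6 on the rRNA scale. Per M reads of 21 to 24 nt it was 1.34.

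Loss of SHH1 on top of zmp-2 gave no change of the cluster beyond the spread of the libraries on the rRNA scale, and the order of the groups depended on the scale. The cluster had 736 ± 291 RPMR in zmp-2 shh1-1, against 806 ± 147 RPMR in zmp-2 (SD, n = 3 each), and the libraries overlapped. The log2 difference was -0.20 (exact permutation test, p = 0.8, 0.8 adjusted over 6 comparisons). Without zmp-2 shh1-1 replicate 3, the lowest of the group, it was 0.15. Per M reads of 21 to 24 nt the order was the other way round, with 293, 273 and 228 reads in zmp-2 shh1-1, against 146, 136 and 144 in zmp-2, a log2 difference of 0.89 without overlap (p = 0.1, exact permutation test). Set to 21-nt reads in miRNA windows it was -0.01.
No cluster window was called (0 of 24 fitted, edgeR, and 0 with an unadjusted p below 0.05), where 28.9% of all tested windows were lower in zmp-2 shh1-1. The median log2 fold change was -0.15 at the cluster and -1.0 over all tested windows. With DESeq2, and with edgeR under TMM factors or the total count, 3 of 24 windows were called, all of them higher in zmp-2 shh1-1. Over all 101166 tested windows, 1370, 5238 and 5592 were called higher under these settings.
The lowest value among the fitted windows belonged to the exon window starting at 16365301, with 10.2, 12.8 and 3.26 RPMR in zmp-2 shh1-1, against 15.2, 14.9 and 15.6 RPMR in zmp-2 (log2 fold change -0.83, SE 0.665, adjusted p = 0.418, edgeR). The highest was 0.21 at the window starting at 16365401 (SE 1.05, adjusted p = 0.927). At the exon window starting at 16365801 the log2 fold change was 0.10 with a 95% interval of -0.82 to 1.03, and at the intergenic window starting at 16364601 it was 0.16 with an interval of -0.68 to 0.99. Both intervals thus hold changes of either sign. Under the total count these 2 windows had 1.21 and 1.19 and were called higher.
By segment, zmp-2 shh1-1 had 90.7% of the zmp-2 level over the gene windows and also 90.7% to their left, 97.4% to their right, 59.1% in the left flank and 95.3% in the right flank, all on the rRNA scale. The 5 shares per M reads of 21 to 24 nt were 188, 184, 191, 121 and 204% of zmp-2, so that the direction turned with the scale. In the flanks 0 of 16 windows were called, and 2 had an unadjusted p below 0.05, those starting at 16363501 and 16367301. What SHH1 does at the cluster in the presence of ZMP cannot be read from these libraries.

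The other size classes of the cluster moved with the 24-nt reads. In zmp-2 of batch A the 21-, 22-, 23- and 24-nt reads kept 10.9, 10.1, 12.8 and 13.8% of the WT level, and in batch B 9.57, 7.90, 10.8 and 12.8%. Of the 22-nt reads over the gene windows, 5.31% remained in zmp-2 of batch A and 4.87% in zmp-2 of batch B. The 4 sizes reached 79.6, 79.6, 70.7 and 70.7% of WT in zmp-2 ZMP-YFP.
In nrpd1-3 all fitted cluster windows were called lower than WT at each size, 14 of 14 at 21 nt, 18 of 18 at 22 nt and 18 of 18 at 23 nt (edgeR), where 83.5, 92.9 and 97.1% of all tested windows were. In zmp-2 ZMP-YFP 12 of 15 windows at 21 nt were higher than in zmp-2, 14 of 19 at 22 nt and 14 of 21 at 23 nt, where 8.89, 9.01 and 5.1% of all tested windows were. At 21 nt several of the fitted windows reached the filter of 10 reads only with those of zmp-2 ZMP-YFP. The window starting at 16366501, for example, had 10 reads there and 0 in zmp-2. Nothing is read from these counts either. In zmp-2 nrpd1-3 few windows could be fitted, and 2 of 2, 4 of 4 and 6 of 6 were lower than in zmp-2, beside 85.4, 91.9 and 95.5% of all tested windows. In zmp-2 shh1-1 none was called against zmp-2 (edgeR), of 10, 11 and 12 fitted windows, and 0 had an unadjusted p below 0.05 at each size, where 23.1, 22.7 and 53% of all tested windows were lower. The locus was picked for low 24-nt values in these zmp-2 libraries, so that nothing is read from this difference. In the comparisons without NRPD1 the fitted windows passed the count filter almost only through WT or zmp-2, and nothing is read from those counts.

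As a make-up, 24-nt reads were the main class of the cluster in every group. They were 67.8 ± 1.46% of the cluster's 21- to 24-nt reads in zmp-2 ZMP-YFP, and 73.6 ± 2.09% in zmp-2, against 69.3 ± 0.375% in WT of batch A (SD, n = 3 each). In batch B they were 73.9 ± 2.14% in zmp-2 shh1-1, and 73.7 ± 3.30% in zmp-2, against 67.2 ± 1.01% in WT. The share in zmp-2 was thus above that in WT by 4.25 percentage points in batch A and 6.51 in batch B, a description. The difference of zmp-2 ZMP-YFP from zmp-2 was -5.78 percentage points with no overlap (exact permutation test, p = 0.1, the smallest possible, 0.40 adjusted over 6 comparisons), and from WT it was -1.53 points with overlap (p = 0.2, exact permutation test). Between zmp-2 shh1-1 and zmp-2 it differed by 0.19 points (p = 0.9, exact permutation test). In nrpd1-3 the share was 59.7 ± 8.25% (SD, n = 2), from the few reads left at the cluster, while 24-nt reads made up 12.9% of these libraries. Nothing is read from this difference. The shares of zmp-2 nrpd1-3 rest on 18 reads of 24 nt and are too few to compare.

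**Figure D4:**
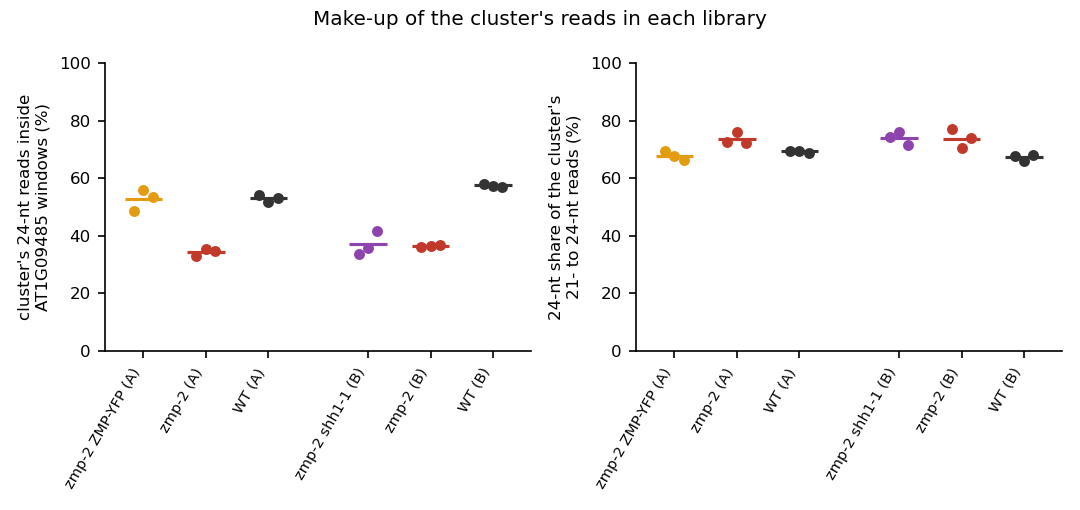
Points are libraries and bars group means, both axes in percent. On the left is the share of the cluster's 24-nt reads that fell in the windows of AT1G09485, and on the right the 24-nt share of the cluster's 21- to 24-nt reads. On the left the zmp-2 libraries (32.9 to 36.7%) lie below the zmp-2 ZMP-YFP libraries (48.7 to 55.9%) and the WT libraries (51.7 to 58.1%), with zmp-2 shh1-1 at 33.8 to 41.8%.

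Other genes with nearly the same pattern were looked for among 3119 annotated genes with at least 100 reads of 24 nt in WT of each batch. Likeness was the root mean square difference, from the cluster, of 6 log2 ratios to WT of the same batch, which share the WT libraries. The closest were the transcribed pseudogene AT2G15850 (0.215), and the genes annotated as coding AT4G03580 (0.225), AT2G16030 (0.298), AT5G27606 (0.343) and AT1G20290 (0.375). In AT2G15850 the log2 ratios to WT were -0.47 in zmp-2 ZMP-YFP, -9.45 in nrpd1-3 and -2.72 in zmp-2 of batch A. The cluster had -0.50, -9.09 and -2.86 on this scale, with a pseudocount of 1 RPMR. In zmp-2 nrpd1-3 the cluster's level was near this pseudocount, so that the ratio there depends in part on the WT level. Likeness is thus partly a likeness of abundance. The genes named had 2516 to 28455 RPMR in WT of batch A.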

How the data were processed

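Per the labels and the study's methods, small RNA libraries (NEBNext Multiplex Small RNA kit) of inflorescences were sequenced. Their titles carry the letter A or B, taken here as batches. The authors trimmed adapters, set aside reads matching rRNA, tRNA and other structural RNAs (Bowtie 1.1.0) while counting 45S rRNA reads, and mapped the rest to TAIR10 with ShortStack without mismatches, placing multiply mapping reads by nearby unique reads. Each read was assigned to the 100-bp window that holds its 5′ end. The deposited files give, per library, window and size, raw counts, RPM (per 1000000 mapped reads, by the authors) and a score, RPMR (per 1000000 45S rRNA reads, by the authors). Counts and the RPMR factor were used, and the deposited RPM was used only to check depths. Windows without a line were taken as 0. The files hold no strand.

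The counts of all windows with at least 10 reads over the groups compared were fitted with edgeR 4.0.16 (quasi-likelihood test, R 4.3.3), with rRNA reads as library size and no replicate block, and called at a fold of 2 and an FDR of 0.05 (Benjamini-Hochberg over all tested windows). The script was tested on simulated data. Summed cluster levels and size shares were compared by exact two-sided permutation tests over libraries. Windows were matched to the TAIR10.1 RefSeq annotation and genome, whose chromosome lengths fit the files. Python 3.11.15 (pandas 2.3.3, numpy 2.4.6, scipy 1.17.1, matplotlib 3.10.9) and blastn 2.17.0 were used for the rest.

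Windows given one by one were the lowest-FDR window of zmp-2 against WT, the 3 highest in WT of batch A, the cluster's edges with the first windows outside, and the highest and lowest fold change of each tested comparison (16 windows). The members, the lists and this rule were chosen with earlier results of these data known. Alternatives were total count, TMM, miRNA windows as library size, DESeq2 1.42.0, no count filter, a replicate block, uniquely mappable windows, and leaving out each library. The labels call the libraries of a group biological replicates, 2 for nrpd1-3. Floors and percentages cover counting error only.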

Additional observations from a re-analysis of the deposited data

How the results depend on the processing

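Of the results that answer a comparison, 212 alternative values kept their direction and their side of the threshold or stayed within 1.5 times the count, 11 counts moved and 14 values changed sign. For summed cluster levels and size shares the side was fixed in advance. With so few libraries the smallest p of the exact permutation tests lies above the threshold. In these values only the direction could change, so the 212 is no measure of how stable their tests were. The calls of nrpd1-3 against WT at 24 nt numbered 6 of 27 with DESeq2 and 8 of 27 with TMM, beside 1.12 and 4.8% of all tested windows. The median log2 fold change over all windows was 0.31 and -4.61. Under TMM, zmp-2 nrpd1-3 against zmp-2 had 4 of 17 windows called, beside 23.6% of all tested windows. Against zmp-2 shh1-1 it had 15 of 23, beside 43.0%. Without the count filter the count against zmp-2 was 26 of 26, beside 56.5%. Under the total count, 21-nt calls of zmp-2 nrpd1-3 numbered 1 of 2 against zmp-2 and 4 of 7 against zmp-2 shh1-1. The shares of all tested windows were 37.9 and 33.5%. For zmp-2 shh1-1 against zmp-2, 3 of 24 windows of 24 nt were called higher under DESeq2, TMM and the total count. Over all 101166 tested windows 1370, 5238 and 5592 were. At 22 nt 2 of 11 windows were called higher under the total count, as were 2536 of all 21181 tested windows. The cluster level of this comparison was 0.89 under the total count and ranged from -0.47 to 0.15 when 1 library was left out. Its 24-nt share difference was -0.47 points against 21-nt reads only, -1.25 in uniquely mappable windows, and between -1.49 and 1.82 without 1 library. The share difference of zmp-2 nrpd1-3, from few reads, was -2.97 (whole region), -2.66 (uniquely mappable) and -11.4 to 11.98 (without 1 library) against zmp-2, and -3.42, -1.41 and -11.5 to 11.8 against zmp-2 shh1-1. Among the windows given one by one, those of nrpd1-3 against WT that changed sign had few reads. Under DESeq2 they were those starting at 16363901 (0.32), 16364401 (0.86), 16365201 (1.21), 16365401 (0.073) and 16366701 (1.05), and under TMM 16365201 (0.18) and 16366701 (0.013). Of all 27 cluster windows, 7 were above 0 under DESeq2, the highest at 1.27, and 1 under TMM. For all of these, beyond what the scale itself sets, the cause was not tested.

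When 1 library was left out, the calls of zmp-2 ZMP-YFP against zmp-2 numbered 14 to 21 of 27. Over all tested windows 3895 of 136930 were called higher in the fit with 14, and 6341 of 143595 in a fit with 21. Calls of nrpd1-3 against WT numbered 22 to 27, of zmp-2 nrpd1-3 against zmp-2 12 to 17 and against zmp-2 shh1-1 18 to 23. In these last comparisons every fitted window was called, beside 97.7 to 99.3% of all tested windows. Libraries with the same replicate number did not deviate together (correlations between -0.02 and 0.02), so the numbers were not taken as pairs. With the replicate block the counts of tested comparisons were the same, 19 for zmp-2 ZMP-YFP against zmp-2, and 21 in place of 22 windows were lower in zmp-2 than in WT of batch A.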
